A study of Mus musculus with 4 samples.

Results

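The acetylation machinery of mouse dendritic cells was followed through 37 of 18194 genes on the array. Of these, 13 were grouped as lysine acetyltransferases or their coactivators (writers), and 24 encode proteins with a bromodomain (readers). The members were taken by name, without a cut on their values, from a list chosen with earlier results of these data known. Where a gene had several probe sets the brightest, by its mean over the 4 arrays, stood for it. The 2 control arrays came from cells given diluent and the 2 SAHA arrays from cells given SAHA, written as 500 nm in the labels, for 12 hours. All cells were grown from the marrow of C57BL/6 mice, at least 3 per experiment, in a 7-day culture with 10 ng/ml each of GM-CSF and IL-4, and were then selected for CD11c to a stated purity of 95%. Replicates are labelled biological, but no label names separate marrow pools, so the p-values reflect only the spread among the 4 arrays, which may be technical. Values are the deposited log2 values of Affymetrix probe sets, which can be compared between arrays but not between genes.

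Acetyltransferases attach acetyl groups to lysines of histones and other proteins, bromodomains are pockets that bind those acetylated lysines, and deacetylases take the groups off again. SAHA (vorinostat) inhibits deacetylases, so it acts on the removal step and not on the enzymes and readers described here. In dendritic cells, which present antigen to T cells, p300 and CBP are known coactivators of inflammatory genes, and BET proteins read the acetylated chromatin at such genes. The paralogs p300 and CBP, GCN5 and PCAF carry a bromodomain beside their catalytic domain and are counted as writers. The nuclear receptor coactivators Ncoa1, Ncoa2 and Ncoa3, which recruit p300 and CBP, are counted with the writers too.

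With SAHA, none of the 37 members passed an adjusted p under 0.05 over all genes. The fit was limma with an intensity trend and no replicate term, with Benjamini-Hochberg adjustment. Against this, 2.23% of all genes tested passed, 1.52% higher and 0.709% lower. At an unadjusted p under 0.05 there were 9 members, 8 lower and 1 higher, where 18.1% of all genes lay under that value, 8.9% lower and 9.17% higher. Log2 changes, SAHA minus control, ran from -0.76 for Crebbp to 0.44 for Baz2a, so no member had a 2-fold change. The lowest adjusted p was 0.0759, for Crebbp. The 95% confidence intervals, a median of 0.38 log2 units to either side, lay within a 2-fold change up or down for 33 of 37 members. The exceptions, Crebbp, Atad2, Hat1 and Ncoa2, reached past a 2-fold lower level. Without control replicate 2, Atad2 passed the threshold (log2 change -1.10, adjusted p = 0.0381). With replicate number as a term in the fit, 11 members passed, 9 lower and 2 higher, against 19.9% of all genes. The labels do not say that a number marks a shared culture, so that fit was not used for calls. For any single member the smallest two-sided p that an exact permutation of 2 against 2 arrays allows is 0.333.

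The writers lay mostly below 0 and the readers on both sides of it, which is a description without a test. Of the 13 writers 12 had a change below 0, against 58.8% of all genes, and the writers' median was -0.22 against -0.05 for all genes. For 9 of the 13 both SAHA arrays lay below both control arrays, against 29.6% of all genes, and for 0 they lay above both, against 21.1%, so that the groups did not overlap in either direction for 50.7% of all genes. Of the 24 readers 12 had a change below 0 and their median was 0.01, which turned to -0.05 with quantile normalization and to -0.07 without control replicate 2. For 7 readers both SAHA arrays lay below both control arrays and for 5 above. With the mean over a gene's probe sets, those near the bottom of the scale included, 10 of 13 writers were below 0. By that mean 6 had both SAHA arrays below both control arrays. The size of the writers' median depended on single arrays, at -0.12 without SAHA replicate 1 and -0.34 without control replicate 1. Of the members 36 lay above the median level of all genes, and among the 9097 genes above it 46.5% were below 0, 25.9% had both SAHA arrays below both control arrays and the median was 0.03.

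**Figure D1:**
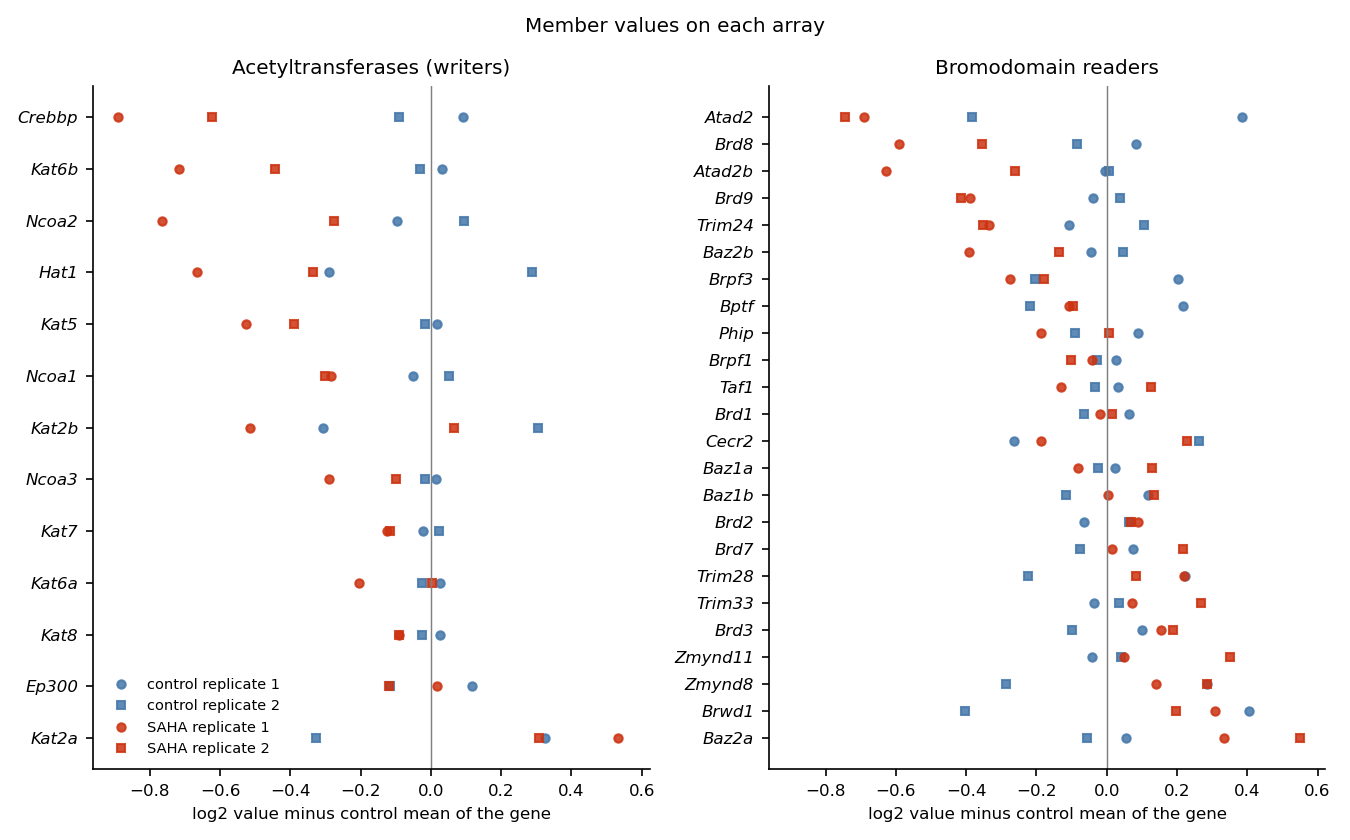
Log2 value of each member on each of the 4 arrays minus the mean of its control arrays (horizontal axis), for 13 writers on the left and 24 readers on the right, ordered by their change. Red points lie left of both blue points for 9 writers and 7 readers, and right of both for 0 writers and 5 readers.

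**Figure D2:**
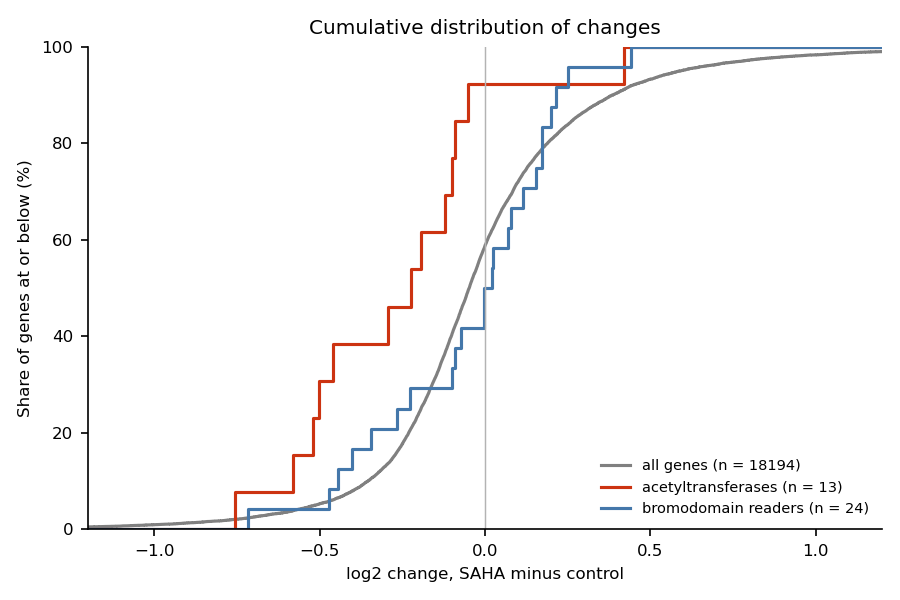
Cumulative share of genes (%, vertical axis) at or below each log2 change (horizontal axis) for all 18194 genes, 13 writers and 24 readers, with changes beyond the edges of the axis not drawn. From the lowest writer, Crebbp at -0.76, to the highest, Kat2a at 0.42, the writers' curve lies above that of all genes.

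Among the writers, Crebbp and Ep300 encode the paralogous coactivators CBP and p300, which acetylate histone H3 at enhancers. Crebbp read 9.59 and 9.40 on the control arrays and 8.60 and 8.87 on the SAHA arrays. Both SAHA values lay below both control values, and the change was -0.76 ± 0.16 (SE, limma, adjusted p = 0.0759), or 1.69-fold lower. A further probe set gave -0.39 and another, with lower values, 0.01. The mean over all its probe sets gave -0.26 (limma, adjusted p = 0.501), and included a probe set under the 25th percentile on every array. Ep300 read 9.81 and 9.58 in control and 9.71 and 9.58 with SAHA, values that overlapped, with a change of -0.05 ± 0.15. Its sign turned to 0.07 without control replicate 1 and to 0.02 without SAHA replicate 2. The interval for Ep300 ran from -0.41 to 0.31.

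Among the MYST acetyltransferases, a family that works in complexes with scaffold and ING proteins, all 5 members were below 0, against 58.8% of all genes, and 4 of 5 had both SAHA arrays below both control arrays, against 29.6%. Kat5 encodes TIP60, the catalytic subunit of the NuA4-type complex that acetylates histones H4 and H2A. It read 9.13 and 9.10 in control and 8.59 and 8.73 with SAHA, a change of -0.46 ± 0.14 (adjusted p = 0.170). Its second probe set gave -0.61, and with probe sets averaged Kat5 had the lowest adjusted p of all members, 0.115. Kat6b (MORF) read 7.47 and 7.41 in control and 6.72 and 7.00 with SAHA, a change of -0.58 ± 0.17 (limma, adjusted p = 0.144). With probe sets averaged it was -0.28, but the other Kat6b probe sets lay under the 25th percentile on every array. Its paralog Kat6a (MOZ), an acetyltransferase needed by blood stem cells, read 9.86 and 9.81 against 9.63 and 9.84, so that the groups overlapped, with a change of -0.10 ± 0.14 that turned to 0.0033 without SAHA replicate 1. Kat7 (HBO1), which acetylates H3 and H4 at replication origins, had a change of -0.12 ± 0.13, and its further probe sets gave 0.39 and 0.02. Kat8 (MOF), the writer of H4 lysine 16 acetylation, had a change of -0.09 ± 0.14.

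Among the other writers Hat1, which acetylates newly made histone H4 before it is built into chromatin, read 9.93 and 10.51 in control and 9.56 and 9.89 with SAHA. The control arrays lay further apart than the nearest arrays of the 2 groups, and the change of -0.50 ± 0.23 (adjusted p = 0.310) ranged from -0.79 without control replicate 1 to -0.21 without control replicate 2. Kat2a (GCN5), the SAGA and ATAC acetyltransferase, was the 1 writer above 0, at 0.42 ± 0.24 (adjusted p = 0.408), with overlapping groups at 8.75 and 8.09 in control and 8.95 and 8.73 with SAHA. Its change ran from 0.09 without control replicate 2 to 0.75 without control replicate 1. Its paralog Kat2b (PCAF) had a change of -0.22 ± 0.27, also with overlap.

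The nuclear receptor coactivators of the p160 family bind hormone receptors and recruit p300 and CBP, and all 3 had both SAHA arrays below both control arrays, against 29.6% of all genes. Ncoa2 read 9.19 and 9.38 in control and 8.52 and 9.01 with SAHA, a change of -0.52 ± 0.20 (adjusted p = 0.245), and its 3 further probe sets gave -0.79 to -0.05. Without SAHA replicate 1 the change was -0.28. Ncoa1 read 8.66 and 8.76 against 8.42 and 8.41, a change of -0.29 ± 0.14 (adjusted p = 0.345), with a further probe set at -0.26. Ncoa3 read 9.23 and 9.20 against 8.93 and 9.12, a change of -0.19 ± 0.15, while its second probe set gave 0.31 and the mean of both 0.06, and the change was -0.10 without SAHA replicate 1.

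**Figure D3:**
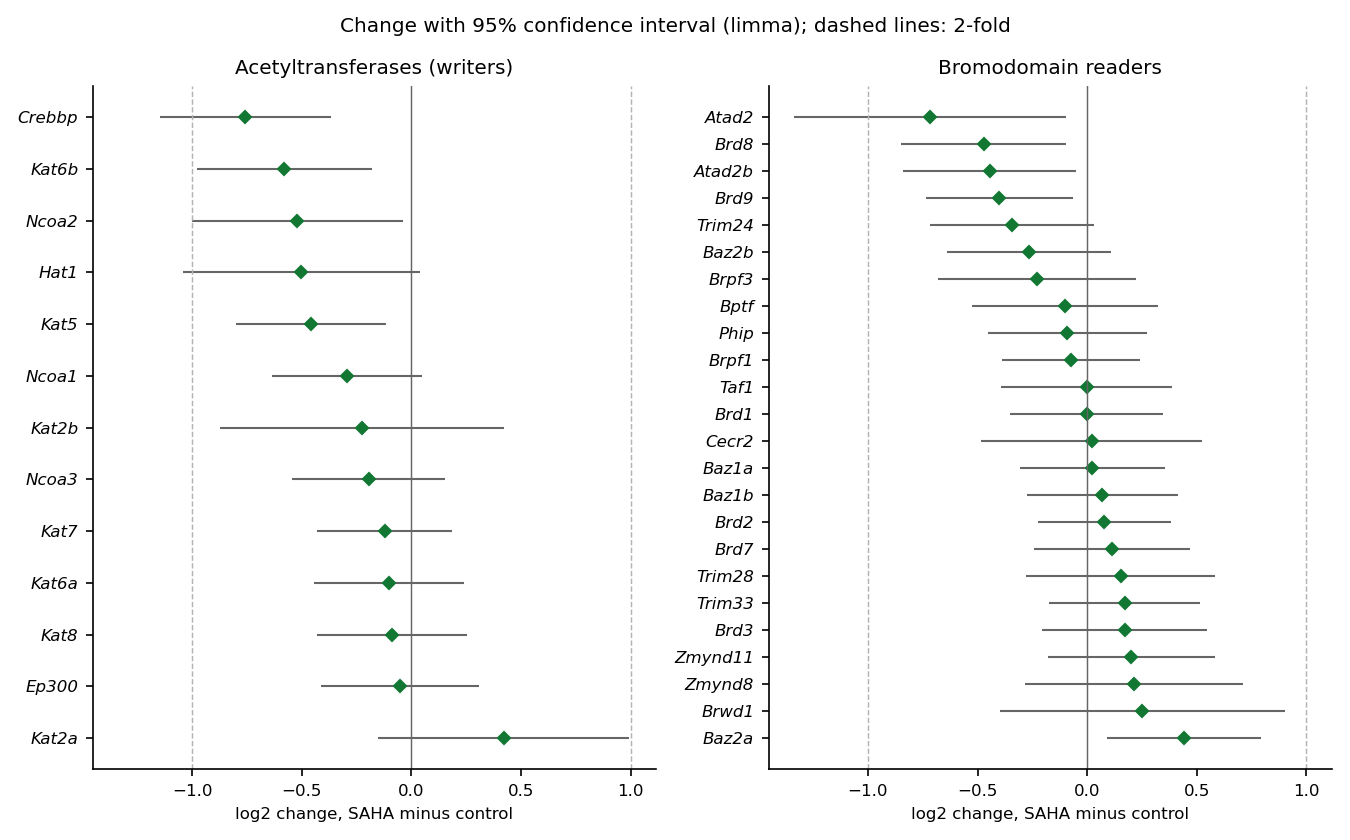
Log2 change, SAHA minus control (diamonds), with its 95% confidence interval from limma (lines) for 13 writers and 24 readers; dashed lines mark a 2-fold change. The intervals of 4 writers and 4 readers lie wholly below 0, that of 1 reader, Baz2a, wholly above, and 28 of 37 span 0.

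Among the readers, the BET proteins Brd2 and Brd3, which bind acetylated histones at active genes and recruit the transcription machinery there, had changes near 0. Brd2 read 10.64 and 10.77 in control and 10.79 and 10.77 with SAHA, a change of 0.08 ± 0.13 with an interval of -0.22 to 0.38, and its second probe set gave -0.02. Brd3 read 7.58 and 7.38 against 7.64 and 7.67, a change of 0.17 ± 0.16, and its 3 further probe sets gave 0.20 to 0.29. The change of Brd3 was 0.07 without control replicate 2 and 0.08 with quantile normalization. The BRPF scaffolds, which hold MYST acetyltransferases in their complexes, had changes of 0.00 for Brd1, -0.07 for Brpf1 and -0.23 for Brpf3, the last with a second probe set at -0.54.

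Both ATAD2 genes, AAA ATPases with a bromodomain, had both SAHA arrays below both control arrays, against 29.6% of all genes. Atad2, an E2F-regulated gene of dividing cells, read 9.10 and 8.33 in control and 8.02 and 7.97 with SAHA, a change of -0.72 ± 0.26 (adjusted p = 0.219). The control arrays differed by more than the nearest arrays of the 2 groups, and the change was -0.33 without control replicate 1. The 6 MCM2-7 helicase genes of DNA replication, a list added after the values were seen, had mean levels of 9.66 and 8.89 on the control arrays and 8.58 and 8.31 on the SAHA arrays. The groups overlapped for 3 of them, and both SAHA arrays lay below both control arrays for the other 3, against 29.6% of all genes. Of the 6 genes 1, Mcm5, was called lower, against 0.709% of all genes. Their part in the Atad2 result was not tested. Atad2b read 10.07 and 10.08 in control and 9.44 and 9.81 with SAHA, a change of -0.44 ± 0.16 (adjusted p = 0.232), and its second probe set, with lower values, was on the other side of 0 at 0.38. The mean over both probe sets was -0.03 (adjusted p = 0.941), and without SAHA replicate 1 the change was -0.26.

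Of the 8 bromodomain proteins tied to ATP-dependent remodelers, 3 were below 0 and 5 above, among these Cecr2, which was near the bottom of the scale, where 3 of its 4 values fell short of the array's 25th percentile, and gives no usable change. By the probe sets used, Baz2a (TIP5), the NoRC subunit that silences ribosomal RNA genes, was the reader with the largest change above 0. It read 9.63 and 9.51 in control and 9.90 and 10.12 with SAHA. Both SAHA values lay above both control values, the change was 0.44 ± 0.15 (adjusted p = 0.192), a further probe set gave 0.26, and the mean over all its probe sets was 0.25. Its paralog Baz2b read 9.06 and 9.15 against 8.71 and 8.97, a change of -0.26 ± 0.16 that became 0.04 when 5 probe sets were averaged and -0.14 without SAHA replicate 1. Brd9, of the non-canonical BAF complex, read 9.01 and 9.08 in control and 8.66 and 8.63 with SAHA, a change of -0.40 ± 0.14 (adjusted p = 0.208) with no further probe set. Its relative Brd7, of the PBAF complex, read 9.73 and 9.57 against 9.66 and 9.87, which overlap, with a change of 0.12 ± 0.15 that was 0.01 without SAHA replicate 2 and 0.04 without control replicate 2. Baz1a (ACF1), Baz1b (WSTF) and Bptf, subunits of ISWI remodelers, had changes of 0.02, 0.07 and -0.10 with overlapping groups. Further probe sets gave 0.49 for Baz1a, without overlap, -0.12 to -0.08 for Baz1b and -0.06 to 0.24 for Bptf.

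Among the TRIM bromodomain proteins, Trim24 (TIF1-alpha) read 7.96 and 8.17 in control and 7.73 and 7.72 with SAHA, a change of -0.34 ± 0.16 (limma, adjusted p = 0.312). A second probe set gave -0.01. The mean over all its probe sets, -0.10, included a probe set under the 25th percentile on every array. Trim28 (KAP1), the corepressor of KRAB zinc-finger proteins, read 10.69 and 10.25 against 10.69 and 10.55, a change of 0.15 ± 0.18 that turned to -0.07 without control replicate 2. Trim33 (TIF1-gamma) read 9.46 and 9.54 against 9.57 and 9.77, a change of 0.17 ± 0.14 with a second probe set at 0.52, and of 0.07 without SAHA replicate 2.

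Of the remaining 6 readers Brd8, a subunit of the TIP60 complex, read 9.61 and 9.44 in control and 8.94 and 9.17 with SAHA. Both SAHA arrays lay below both control arrays, the change was -0.47 ± 0.16 (adjusted p = 0.192), and its 4 further probe sets were all below 0, from -0.60 to -0.07. Taf1, the largest TFIID subunit, had a change of 0.00 and Phip of -0.09, while Brwd1 had 0.25 ± 0.27 with overlap. Zmynd8 and Zmynd11, chromatin readers with a PHD finger, a bromodomain and a PWWP domain, had changes of 0.21 ± 0.21 and 0.20 ± 0.16. The 4 further probe sets of Zmynd8 gave 0.13 to 0.88, and the 3 of Zmynd11 gave -0.06 to 0.05.

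Probe sets of the same gene were not always of the same sign. The 37 genes had 114 probe sets, and beyond those used 61 in 29 genes lay above the 25th percentile on every array. Of these 61, 39 had the sign of the probe set used, 10 of 15 among writers and 29 of 46 among readers. Over all 28 such writer probe sets, the used ones included, 20 were below 0 with a median of -0.16, and over the 69 reader probe sets 37 were below 0 with a median of -0.0060.

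**Figure D4:**
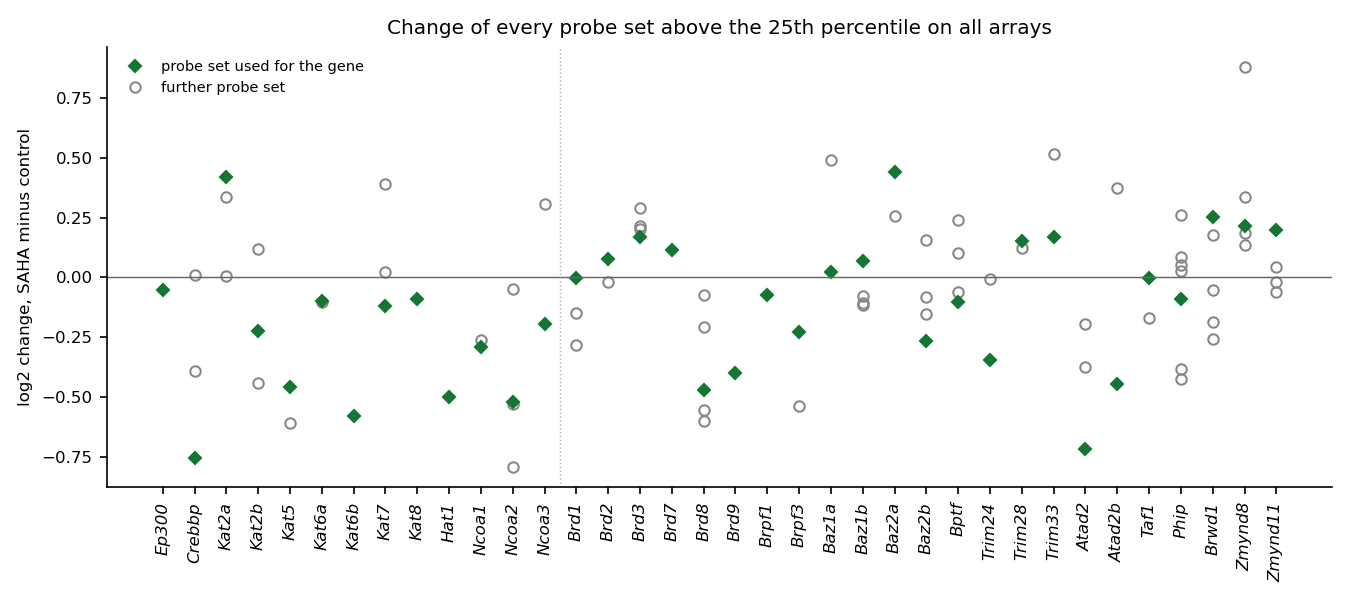
Log2 change (vertical axis) of each probe set of a member whose value lay above the 25th percentile on all 4 arrays, with the probe set used for the gene as a diamond and further ones as circles; the dotted line parts the writers (left) from the readers (right), and Cecr2 has no such probe set. All probe sets of Kat5, Ncoa1, Ncoa2, Brd8 and Atad2 lie below 0, while those of Kat7, Ncoa3 and Atad2b lie on both sides.

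Paralogs were compared within arrays. On each array the log2 value of a gene was taken minus that of its paralog. In 8 of 19 pairs, some of which share a gene, this difference did not overlap between the groups. The values of single genes did not overlap for 50.7% of all genes. That is another measure, and no share over other gene pairs was computed, so the count of pairs has no background. With 2 arrays per group no test of a single pair can go below p = 0.333 in an exact permutation test, so these are descriptions. Ep300 minus Crebbp was 0.23 and 0.18 on the control arrays and 1.11 and 0.71 on the SAHA arrays. Baz2a minus Baz2b was 0.57 and 0.37 in control and 1.19 and 1.16 with SAHA. The shift was 0.71 log2 units in both pairs. Kat6a minus Kat6b shifted by 0.48 and Brd7 minus Brd9 by 0.52, each without overlap. Atad2 and Atad2b, Brd2 and Brd3, and Zmynd8 and Zmynd11 overlapped.

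**Figure D5:**
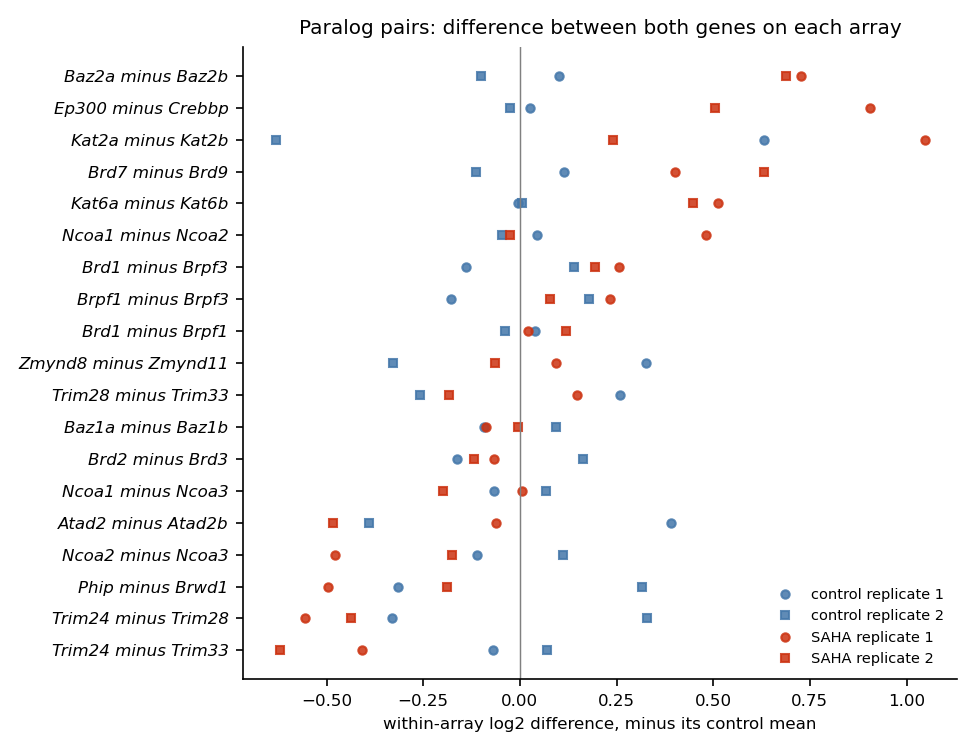
Log2 difference between the genes of each of 19 paralog pairs on each array, minus its control mean (horizontal axis). In the pairs at the top, Baz2a minus Baz2b and Ep300 minus Crebbp, both SAHA arrays lie to the right of both control arrays.

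The 250 bases upstream of the start of these 4 genes are shown because they are the pairs with the largest shift. They are from RefSeq on GRCm38.p6, which held a window for 29 of 37 members, and run 5′ to 3′ on the gene's strand. The windows are chr16:4213405-4213654 (minus strand) for Crebbp, chr15:81585964-81586213 (plus) for Ep300, chr10:128092533-128092782 (plus) for Baz2a and chr2:60125741-60125990 (minus) for Baz2b. Capitals mark matches on either strand to the GC box (GGGCGG), the NF-Y motif (CCAAT) and the cAMP response element or CRE (TGACGTCA).
Crebbp: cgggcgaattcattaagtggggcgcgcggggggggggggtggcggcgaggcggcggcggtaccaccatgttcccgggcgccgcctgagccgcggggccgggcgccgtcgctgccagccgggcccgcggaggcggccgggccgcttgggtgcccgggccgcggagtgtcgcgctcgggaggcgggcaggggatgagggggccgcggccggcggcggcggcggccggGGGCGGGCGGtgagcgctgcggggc
Ep300: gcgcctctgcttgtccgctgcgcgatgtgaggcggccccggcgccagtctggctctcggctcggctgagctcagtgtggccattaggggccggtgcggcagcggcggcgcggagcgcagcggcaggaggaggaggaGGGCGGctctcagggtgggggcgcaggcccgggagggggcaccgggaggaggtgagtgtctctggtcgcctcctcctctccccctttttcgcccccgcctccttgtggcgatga
Baz2a: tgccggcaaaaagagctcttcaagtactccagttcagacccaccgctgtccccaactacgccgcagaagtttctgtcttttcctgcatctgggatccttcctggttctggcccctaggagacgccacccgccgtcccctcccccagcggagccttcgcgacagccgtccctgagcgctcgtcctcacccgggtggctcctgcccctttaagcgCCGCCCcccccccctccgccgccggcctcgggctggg
Baz2b: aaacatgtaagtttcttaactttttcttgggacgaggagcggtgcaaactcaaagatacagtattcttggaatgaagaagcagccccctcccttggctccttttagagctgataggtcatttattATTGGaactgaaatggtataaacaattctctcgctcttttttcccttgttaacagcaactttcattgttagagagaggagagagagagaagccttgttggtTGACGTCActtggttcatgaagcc
Crebbp holds 2 matches to the GC box that overlap each other, in a window with 84% G or C and 44 CpG dinucleotides. Ep300 holds 1 GC box with 73.2% G or C and 25 CpG, and Baz2a 1 GC box with 67.2% and 20 CpG. Baz2b differs from these, with 41.2% G or C, 4 CpG, no GC box, 1 NF-Y motif and 1 CRE. Over all 32851 windows of this length 32.7% held the GC box, 33.8% the NF-Y motif and 1.55% the CRE. The median window of the members had 21 CpG against 6 over all windows. The ETS motif (CCGGAAG), the E-box (CACGTG) and an E2F motif (TTTCGCGC) were searched too, on both strands, had no match in these 4 windows, and were held by 6.91%, 6.02% and 0.256% of all windows.

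The partners of the writers were described from lists of complex subunits. The TIP60 complex had 14 measured subunits, with a median of -0.15. Of these 14, none passed the threshold higher, against 1.52% of all genes, and 1 passed it lower, against 0.709%. This was Meaf6, a small subunit that the TIP60, MOZ and HBO1 complexes share, which read 8.15 and 8.15 in control and 6.98 and 7.12 with SAHA and fell by 1.10 ± 0.15 log2 units (SE, limma, adjusted p = 0.0274). Its probe set is of a type that can share sequence, a further one gave -0.31, and it lost its call without SAHA replicate 1 (adjusted p = 0.187) and without SAHA replicate 2 (0.0970). Named after their values were seen, the enhancer of Polycomb subunits Epc2 and Epc1, which scaffold TIP60, had changes of -1.0 ± 0.20 (adjusted p = 0.0638) and -0.83 ± 0.17 (0.0679), and the acetyl-lysine reader Yeats4 -0.71 ± 0.16 (0.0869). Both SAHA arrays lay below both control arrays for 8 of the 14 subunits, against 29.6% of all genes, and above both for 3, Ruvbl2 at 0.33, Ing3 at 0.29 and Actl6a at 0.22, against 21.1%.

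The list of MOZ, HBO1 and MOF complex subunits did not hold the shared subunit Meaf6, which was counted with TIP60. None of the 14 measured subunits on that list passed. Of them 11 were below 0, against 58.8% of all genes, and the median was -0.32 against -0.05. At an unadjusted p under 0.05, 7 were lower, against 8.9% of all genes, and 1 higher, against 9.17%. Ing5, which brings HBO1 and MOZ to methylated H3, had a change of -0.63 ± 0.17 (adjusted p = 0.131), and Hcfc1, a host cell factor bound by MOF, of -0.58 ± 0.16 (0.135). In SAGA and ATAC none of 23 passed, with a median of -0.02. At an unadjusted p under 0.05, 3 were higher and 4 lower, against those same shares of all genes. The largest changes were 0.49 for the deubiquitinase Usp22 and -0.47 for the adaptor Tada2b.

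Other lists were as mixed. Of all genes 1.52% were called higher and 0.709% lower, and 58.8% had a change below 0. At an unadjusted p under 0.05, 9.17% of all genes were higher and 8.9% lower. Of 14 other bromodomain and acyl-lysine readers 1 rose and none fell over all genes, with a median of -0.0088. It was Mllt3 (AF9), a YEATS-domain reader of the elongation complexes, which went from 5.09 and 5.23 in control to 6.47 and 6.09 with SAHA, a rise of 1.12 ± 0.18 (adjusted p = 0.0400). Its further probe sets gave 1.38 and 0.92. The call was lost without control replicate 1 (adjusted p = 0.0534), without SAHA replicate 1 (0.214) and without SAHA replicate 2 (0.0721). None of 9 BET partners and P-TEFb genes passed (2 higher and 1 lower at an unadjusted p under 0.05), but 7 were above 0 and the median was 0.28. The cyclin Ccnt1 had a change of 0.44 ± 0.17 and Larp7, which holds P-TEFb inactive in the 7SK particle, of -0.49 ± 0.19. None of 11 other acetyltransferases passed (2 higher at an unadjusted p under 0.05, median -0.0032), with the tubulin acetyltransferase Atat1 at 0.64 and Gtf3c4 at 0.55. Of 8 regulators of p300 and CBP and of acetylation none passed (1 lower at an unadjusted p under 0.05, median 0.04), with Anp32b at -0.36 and Eid1 at 0.36. None of 9 genes of acetyl-CoA supply passed or had an unadjusted p under 0.05, and their changes ran from -0.13 to 0.21, with Acss2, which makes acetyl-CoA from acetate, at 0.21 and the citrate carrier Slc25a1 at 0.20.

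Among 10 dendritic cell markers Itgax (CD11c) read 12.4 to 13.4 and Cd74 14.2 on all arrays. Flt3 read 6.72 to 7.48, Zbtb46 7.76 to 7.93, and Cd209a was low at 4.47 to 4.68. The list had a mean level of 10.7 on every array, and 9 macrophage and monocyte markers had mean levels of 11.6 to 12.1. Levels of different genes cannot be compared, so these means do not rank the cell types. Of the dendritic cell markers 1, Irf4, was called, at 0.81 (limma, adjusted p = 0.0431), or at 0.53 and not called with probe sets averaged. Of the 10, 4 had both SAHA arrays below both control arrays, against 29.6% of all genes, and 1 above, against 21.1%. Ccr7, a chemokine receptor, was at -0.49 ± 0.13 (limma, adjusted p = 0.118). Irf4 also missed the threshold without control replicate 2 (adjusted p = 0.105), SAHA replicate 1 (0.279) or SAHA replicate 2 (0.154). Neutrophil markers moved with the groups, with 5 of 11 called lower, against 0.709% of all genes, and Prtn3 called higher, against 1.52%. Of the 11, 9 had a change below 0 and 2, Prtn3 and Mmp8, above. Mean levels were 7.46 and 7.55 on the control and 7.09 and 7.17 on the SAHA arrays, and log2 summed levels 12.7 to 13.1 and 13.1 to 13.4. The marker with the highest values, Mmp8, weighs most in that sum. It read 12.4 and 11.7 in control and 13.1 and 12.8 with SAHA, a change of 0.86 ± 0.24 (limma, adjusted p = 0.143). The 5 lower ones, Ngp, S100a9, Ltf, S100a8 and Camp, all missed the threshold without SAHA replicate 1 (adjusted p from 0.0593 for Ngp to 0.204 for S100a8), Ltf, S100a8 and Camp also without SAHA replicate 2, S100a8 and Camp without control replicate 2 and S100a8 without control replicate 1. No call was made among 9 macrophage and monocyte, 5 B cell, 5 T and NK cell and 6 mast cell and basophil markers. Of the 9 macrophage and monocyte markers 4 had both SAHA arrays below both control arrays, against 29.6% of all genes, and 0 above, against 21.1%. Mertk was at -0.92 ± 0.17 (limma, adjusted p = 0.0509) and Marco, whose groups overlapped, at -0.94 ± 0.49. In these 4 lists Cd3g, Mcpt8, Ms4a2 and Fcer1a lay under the 25th percentile on every array. The part of these marker changes in the values of the members was not tested, and fewer cells of a type cannot be told apart from less RNA per cell in bulk samples.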

How the data were processed

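Total RNA from CD11c-selected dendritic cells was hybridised to 4 Affymetrix arrays, 2 per group, per the labels. The authors deposited log2 values for 45101 probe sets; that they are log2 was read from their range of 2.59 to 15.0, the submitters' processing notes name R 2.7, and summarisation and normalization are not given in the sources used here. Array medians lay within 0.0118 of each other. Arrays give no read depth, and their number limits the precision. Symbols were updated through Entrez identifiers for 34754 of the 34958 probe sets with 1 symbol, and for each of 18194 genes the brightest probe set was used. Groups came from the sample titles. SAHA was compared with control in limma 3.58.1 (R 4.3.3; lmFit, eBayes with trend, two-sided, Benjamini-Hochberg over all genes, threshold 0.05), with no intensity filter; the fit was tested on simulated data under 2 models of the variance. The false-call share stayed near the threshold when variances were drawn from limma's fitted prior, the model the fit itself assumes, and exceeded it when each gene's moderated variance was taken as its true one. The prior-based model was added after the other had exceeded the threshold, so calls at 0.05 may hold more false ones than that share.

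The members and lists were chosen with earlier results of these data known. Values on each array were given for members past the threshold, the 12 largest changes without overlap and their paralogs; those of Kat2a, Brd2 and Brd3 were added after the values were seen. In each list of partners the called genes, or the 2 largest changes, were named. Alternatives were other spread models, normalizations, floors, offsets, probe set rules, a stricter threshold, replicate number as a term, and each array left out.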

Additional observations from a re-analysis of the deposited data

How the results depend on the processing

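No alternative called more than 1 member except the fit with replicate number as a term. That replicate block called 11 members, 9 lower and 2 higher, of which 6 were writers. Over all genes it called 3616 or 19.9%, 1662 lower and 1954 higher. Same-numbered arrays deviated together (r = 0.57 across genes, which are no independent replicates), but the labels do not say that a number marks a shared culture and there are only 2 pairs, so it was not used for calls. Over all genes 405 were called, against 226 among genes above the median level, 8 at a threshold of 0.01, 0 under a floor at the 20th percentile, 0 in the ordinary linear model, and 31 to 529 without each array in turn, with 31 without SAHA replicate 1 and 90 without SAHA replicate 2. Members called ranged from 0 to 1 without each array in turn, the writers' median from -0.34 to -0.12 and the readers' median from -0.071 to 0.077. The number of writers below 0 was 10 to 12 and that of readers 9 to 16 over these and the other scalings, counts added after the values were seen. Of the 22 members given by array, the 3 added after the values were seen included, 16 kept their direction in every alternative run. Averaging probe sets turned Ncoa3 to 0.055 and Baz2b to 0.039, probe sets not of shared types turned Brd2 to -0.019, and leaving out arrays gave ranges of -0.17 to 0.065 for Ep300, -0.20 to 0.0033 for Kat6a and -0.070 to 0.38 for Trim28. The cause was not tested, other than that fewer arrays or genes were used. Among the called genes outside the members, Meaf6 missed the threshold in 7 of 16 alternatives, Mllt3 in 6 of 15 and Irf4 in 8 of 16. With 2 arrays per group, the interval of a member reached a median of 0.38 log2 units to either side, so smaller differences could not be told from 0.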
